A study of Mus musculus with 24 samples.

Results

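Amino acids enter and leave a cell through carriers of the plasma membrane, and 10 genes for such carriers were followed here in MIN6 cells, a mouse β-cell line from an insulinoma that secretes insulin. They were chosen by name (Slc6a9, Slc7a1, Slc7a3, Slc7a5, Slc7a6, Slc3a2, Slc38a1, Slc38a2, Slc1a4 and Slc1a5) from the gene symbols of the count table. Earlier results of these data were known at that choice. The table holds 12310 genes, and 8 of the 10 are among them. Slc7a3 and Slc1a5 were not analysed here.

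RNA sequencing counted the transcripts of 12 libraries of cells treated with verapamil (50 µM; 24 h), a blocker of L-type calcium channels, and of 12 libraries of untreated cells (control). Cells of both groups were wild type by their labels and were kept in medium with 5.6 mM glucose, serum and glutamine, and no vehicle is named for the control. The libraries came from 4 experiment sets with 3 libraries per group in each. Which set a library belongs to was inferred from the leading digit of its description, a reading that remains unstated in the sources. Levels are given as CPM, the counts of a gene scaled to a common library total, with the TMM factors of edgeR. Changes are log2 fold changes of verapamil against control from edgeR's quasi-likelihood test, adjusted over the 12306 genes tested (threshold 0.05). Where a standard error (SE) follows a log2 fold change, it comes from the same fit.

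Library totals ranged from 12590476 to 32360171 counts in the control and from 21840159 to 44806556 in verapamil-treated cells. No pair of libraries of a group agreed within sampling noise, as the lowest chi-square per degree of freedom over 132 pairs was 5.73. The biological coefficient of variation was 0.276 in verapamil-treated cells and 0.103 in the control. A gene's deviation in a library, correlated over genes with its GC content, gave an r of 0.0379 to 0.651 in verapamil libraries and of -0.182 to 0.161 in controls, and with transcript length an r of -0.611 to -0.0361 and of -0.128 to 0.126. These trends were strongest in sets 2 and 3 for GC content, and the verapamil library in the column V11, by elimination of set 4, had the value of -0.611 for length. Where it decides a range or a call of the transporter genes below, the value without it is given too. Of 20 β-cell markers, 18 were in the table, among them Ins1 with a median of 469 CPM and Mafa with a median of 682 CPM in the control. Of the measured markers, 2 rose with verapamil, Mafa (log2 fold change 0.85) and Nkx2-2 (0.62). The 8 that fell were Pcsk1 (-2.26), Ins2 (-1.05), Slc30a8 (-0.88), Iapp (-0.85), Slc2a2 (-0.84), Neurod1 (-0.52), Chga (-0.38) and Pax6 (-0.35). Ins1 did not pass the edgeR test (-0.16, adjusted p = 0.31). The summed level of the list ranged from 12440 to 14660 CPM in the control and from 11010 to 12910 CPM with verapamil. Gcg, a hormone gene of islet α cells, was the only 1 measured of 7 markers of other islet cells. Its median was 185 CPM in the control and 271 CPM with verapamil. Of 14 fibroblast, endothelial, blood cell and neuronal markers 4 were measured. Their summed level was 336 to 395 CPM in the control and 191 to 415 CPM with verapamil. Snap25 made up most of it, with a median of 315 CPM in the control and 280 CPM with verapamil. The others had control medians of 22.9 CPM (Tubb3), 19.2 CPM (Rbfox3) and 0.962 CPM (Pdgfra). The part of all these markers in the results was not tested. In such bulk samples fewer cells of a type and less RNA per cell cannot be told apart.

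Amino acid carriers of the plasma membrane include exchangers, which trade one amino acid for another, and sodium-coupled carriers, which build up a gradient that exchangers can spend. The exchangers of the SLC7 family that serve large neutral amino acids work as a pair, with the SLC7 light chain as the pore and the glycoprotein encoded by Slc3a2 (4F2hc, CD98) as the heavy chain that brings it to the surface. In β cells, leucine, glutamine, arginine and glycine are known to act on insulin secretion, and transcription of several carrier genes is known to respond to amino acid supply through the transcription factor ATF4.

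With verapamil, 5 of the 8 measured transporter genes rose: the glycine carrier Slc6a9, the alanine and serine carrier Slc1a4, the arginine and lysine carrier Slc7a1, and the light chain Slc7a5 with its heavy chain Slc3a2. Their log2 fold changes ran from 0.70 for Slc3a2 to 1.80 for Slc6a9. The remaining 3 did not pass the test: the light chain Slc7a6 and the sodium-coupled glutamine and alanine carriers Slc38a1 and Slc38a2. This split ran along GC content. Transcripts of the 5 genes that rose had from 51.3% (Slc7a1) to 57.0% (Slc6a9). Those of the remaining 3 had from 43.9% (Slc38a2) to 48.5% (Slc38a1). The part of GC content in the split was not tested. By edgeR 0 of the 8 fell, also at an unadjusted p under 0.05 and with DESeq2. Over all genes tested, 31.2% rose and 31.6% fell, so that a call in either direction was common in this table. The median log2 fold change was 0.73 over the 8 genes and -0.003 over all genes. Since earlier results of these data were known when the genes were chosen, such contrasts, here and below, are a description and no independent test. When the counts were summed per experiment set, and 4 sums were compared with 4, the same 5 genes rose and 0 fell, adjusted or not, against 24.4% of all genes higher and 17.3% lower. In that edgeR fit the adjusted p of the 5 genes ran from 7.7e-05 for Slc6a9 to 0.0035 for Slc1a4. In a fit with each library's GC and length trend as covariates all 8 were higher, where 21.3% of all genes rose and 14.2% fell. With these trends removed as an offset 7 were higher and Slc7a6 was at -0.03, where 20.6% of all genes rose and 34.6% fell.

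**Figure D1:**
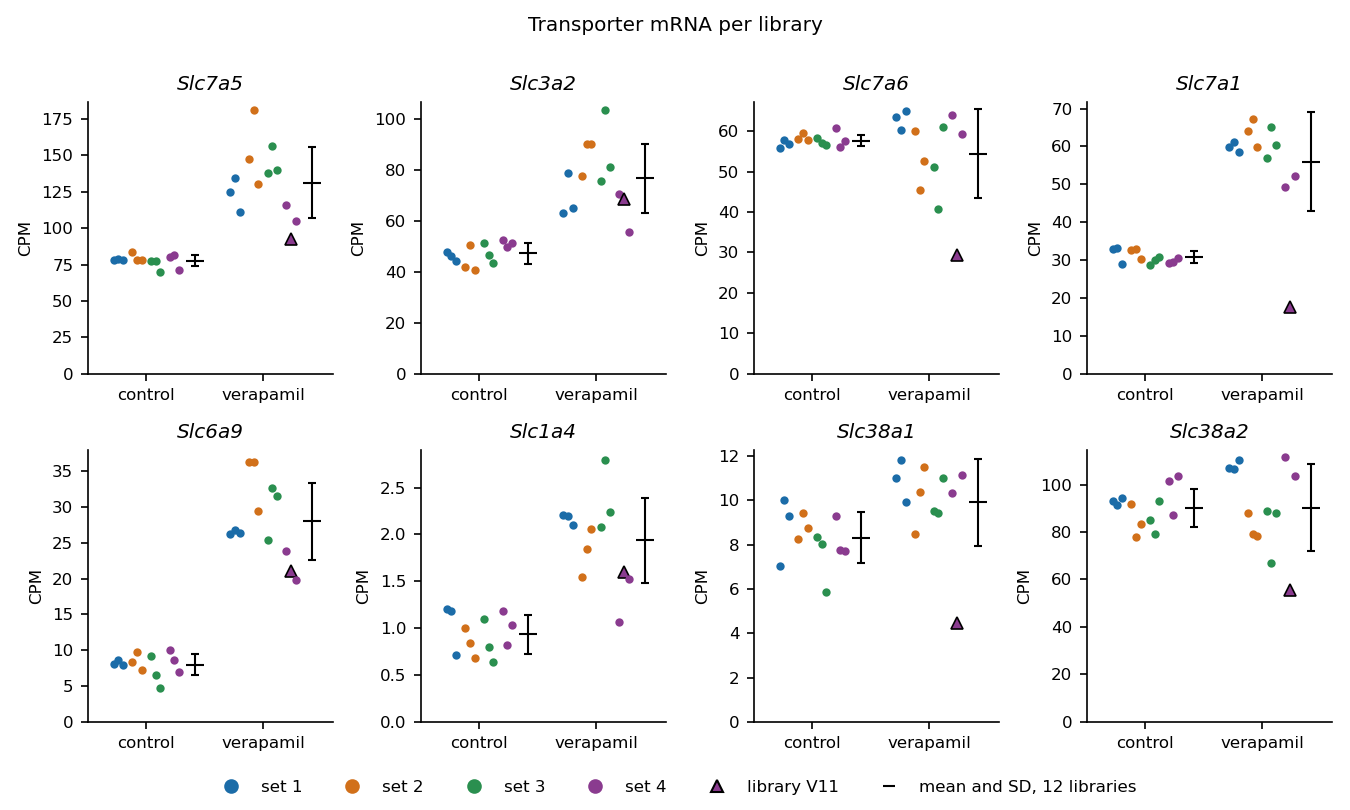
Level of each transporter gene (CPM) in the 12 control and 12 verapamil libraries, with a point per library coloured by experiment set, the V11 library as a triangle, and bars for the mean and SD of 12. For Slc7a5, Slc3a2 and Slc6a9 all 12 verapamil libraries sit above every control, and V11 is the lowest verapamil point for Slc7a5, Slc7a6, Slc7a1, Slc38a1 and Slc38a2.

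Promoter sequences were available in RefSeq (GRCm38.p6) for 6 of the 10 genes, some with several starts. They were searched on both strands for the C/EBP-ATF response element TGATGNAA, through which ATF4 is known to act, for the CREB element TGACGTCA and for the E-box CACGTG. None of these motifs contains another. In the 250 bases before the start, 3.45%, 1.55% and 6.02% of the 32851 promoter windows of the table hold them, and no window of the 6 genes does. In windows that also take in the first 50 bases after the start, where 3.97%, 1.79% and 7.15% of all windows hold them, Slc1a4 has the C/EBP-ATF element on the opposite strand, from position -4 to 4 around its start. This wider window was chosen after seeing the data. Some transporters outside the 10 genes were searched in the same wider windows. Slc7a8, Slc43a2, Slc1a2 and Slc16a10 hold none of these motifs there. Slc7a11, a further light chain that pairs with Slc3a2, has the C/EBP-ATF element on either strand, from -66 to -59 and from -47 to -40. A match of letters is a description and not a binding site, and the lack of one says nothing on the factor. The bases just before the start are shown for Slc1a4 and Slc7a11, and for Slc7a1 and Slc3a2, which rose without such a match. All are written 5′ to 3′ on the gene's own strand, with the element in capitals.
Slc1a4, chr11:20332710-20332813, minus strand: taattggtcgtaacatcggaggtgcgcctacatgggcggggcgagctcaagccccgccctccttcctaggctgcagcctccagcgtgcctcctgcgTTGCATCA
Slc7a11, chr3:50443614-50443713, minus strand: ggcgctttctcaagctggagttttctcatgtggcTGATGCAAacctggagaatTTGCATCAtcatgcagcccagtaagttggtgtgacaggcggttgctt
Slc7a1, chr5:148399905-148400004, minus strand: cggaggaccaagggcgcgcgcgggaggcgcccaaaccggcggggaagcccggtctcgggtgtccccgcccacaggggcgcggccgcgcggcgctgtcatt
Slc3a2, chr19:8713898-8713997, minus strand: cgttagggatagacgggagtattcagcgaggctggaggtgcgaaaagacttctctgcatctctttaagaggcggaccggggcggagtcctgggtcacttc
The last 4 bases of the Slc1a4 line lie after its start, and the other lines end at the base before the start.

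To compare genes with each other, CPM was divided by the length of the longest basic transcript in GENCODE M21. On this scale of CPM per kb, the control libraries were led by Slc7a5 (22.1 ± 1.07; SD, n = 12), followed by Slc38a2 (19.3 ± 1.71), Slc3a2 (16.8 ± 1.41) and Slc7a6 (15.4 ± 0.372). The ranges of neighbours in this order overlapped among these 4 genes. Slc7a1 lay below them with no overlap, at 4.29 ± 0.236 CPM per kb, followed by Slc6a9 (2.30 ± 0.417) and Slc38a1 (1.15 ± 0.159), whose ranges touched, and by Slc1a4 (0.238 ± 0.0524). In verapamil-treated cells the order was Slc7a5 (37.3 ± 6.86), Slc3a2 (27.3 ± 4.77), Slc38a2 (19.4 ± 3.91), Slc7a6 (14.5 ± 2.93), Slc6a9 (8.04 ± 1.55), Slc7a1 (7.81 ± 1.82), Slc38a1 (1.37 ± 0.271) and Slc1a4 (0.493 ± 0.115). Slc3a2 and Slc38a2 had changed places. Slc6a9 and Slc7a1 had too, but without V11 their means were 8.22 and 8.29 CPM per kb. With verapamil the ranges of neighbours in the order overlapped, apart from those of Slc7a1 and Slc38a1. Without V11, Slc7a6 (from 10.9 CPM per kb) lay also apart from Slc6a9 (up to 10.4), and Slc38a1 (from 1.17) from Slc1a4 (up to 0.710). The sum over the 8 genes was 81.6 ± 2.96 CPM per kb in the control and 116 ± 14.0 CPM per kb with verapamil, a ratio of 1.42, and V11 was the lowest verapamil library at 79.8. Without it the sum was 119.5 ± 8.49 CPM per kb (SD, n = 11) and at least 102 in every library.

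**Figure D2:**
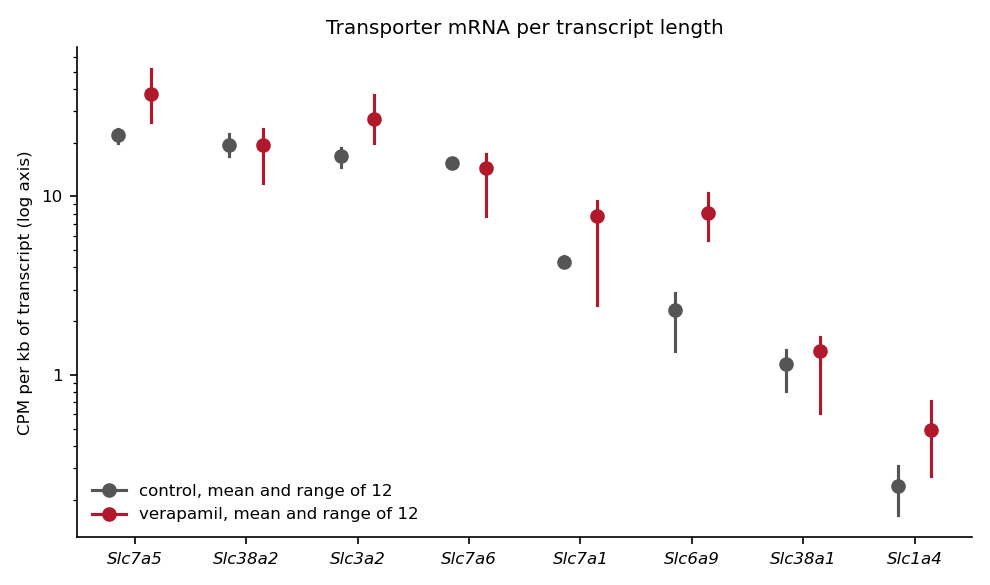
Level of each transporter gene per transcript length (CPM per kb, log axis) in control (grey) and verapamil libraries (red), with the mean as a point and the range of 12 libraries as a line. Slc6a9 moves from 2.30 to 8.04 CPM per kb and Slc1a4 stays the lowest of the 8 in both groups.

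Slc7a5 (ENSMUSG00000040010; chr8:121881150-121907694, minus strand, GRCm38) encodes LAT1, the light chain that carries leucine and other large neutral amino acids in exchange for glutamine. Its lowest, median and highest levels were 69.9, 78.0 and 83.3 CPM in the control and 92.3, 133 and 181 CPM with verapamil. The groups did not overlap, and V11 was the lowest verapamil library. Without V11 the lowest verapamil level was 105 CPM. The log2 fold change was 0.76 (SE 0.078, adjusted p = 2.2e-08), a fold of 1.69. A predicted gene, Gm20388, overlaps Slc7a5 on the opposite strand, and no source used here gives the strand setting of the counting, so their reads may not be told apart.

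Slc3a2 (ENSMUSG00000010095; chr19:8706882-8723369, minus strand) encodes the heavy chain shared by LAT1 and its relatives. It had 40.9, 47.2 and 52.6 CPM as the lowest, median and highest control level and 55.6, 76.8 and 103 CPM with verapamil. All 12 verapamil libraries lay above every control, V11 with 68.5 CPM among them. The log2 fold change was 0.70 (SE 0.080, adjusted p = 1.1e-07), a fold of 1.62, and 0.43 (adjusted p = 6.5e-06) with the GC and length covariates.

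Slc7a6 (ENSMUSG00000031904; chr8:106168857-106198706, plus strand) encodes y+LAT2, a light chain that trades arginine for glutamine and other neutral amino acids and also pairs with the heavy chain. Control levels were held in a narrow range of 55.9 to 60.7 CPM with a median of 57.6 CPM. With verapamil the lowest, median and highest levels were 29.3, 59.6 and 65.0 CPM, with 4 libraries above every control and 5 below. The log2 fold change was -0.09 (SE 0.091, interval of 2 SE each way -0.27 to 0.10, adjusted p = 0.42), and it turned to 0.25 (adjusted p = 1.5e-04) with the GC and length covariates. Without V11, which was the lowest library, the lowest verapamil level was 40.8 CPM, still under all controls.

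Slc7a5 took a larger share of the light chain mRNA in verapamil-treated cells. The ratio of Slc7a5 to Slc7a6 in CPM per kb had a mean of 1.44 ± 0.0706 (SD, n = 12) in the control, with a highest value of 1.55, and of 2.70 ± 0.817 with verapamil, with a lowest value of 1.82. Within the summed light chains measured here (Slc7a5, Slc7a6, Slc7a8 and Slc7a11), Slc7a5 made up 50.5% to 54.7% in the control and 57.8% to 72.4% with verapamil, whereas Slc7a6 made up 34.7% to 38.4% and 17.0% to 31.7%. Neither share overlapped between the groups. Slc7a8, which encodes LAT2, held 11.1% ± 1.01 in the control and 10.0% ± 0.765 with verapamil. The heavy chain relative to the summed light chains was 0.398 ± 0.0341 in the control and 0.476 ± 0.0821 with verapamil, and 5 of 12 verapamil libraries lay above every control. These are ratios of mRNA levels per length, given as a description with no test, and the ratio to the summed light chains was the highest in V11 at 0.649 and 0.461 ± 0.0644 (n = 11) without it. They take no account of GC content and length: with these as covariates the log2 fold changes were 0.57 for Slc7a5 and 0.25 for Slc7a6, closer to each other than the 0.76 and -0.09 without.

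**Figure D3:**
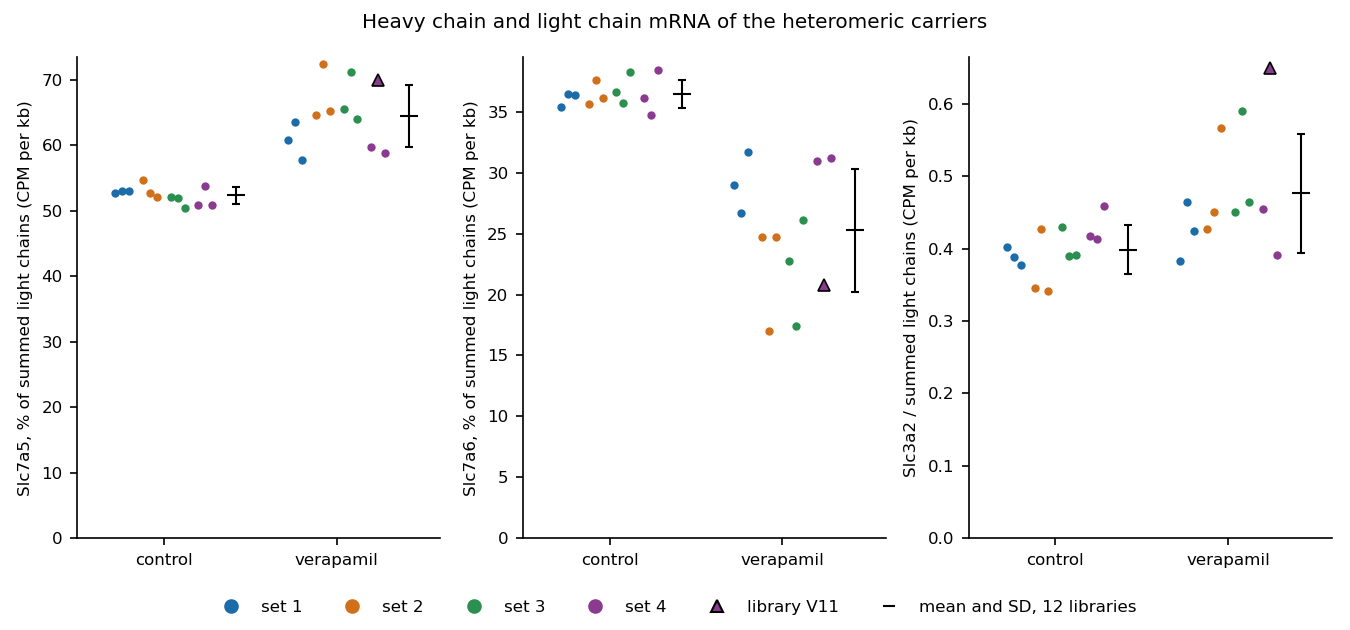
Share of Slc7a5 and of Slc7a6 in the summed light chains (percent of CPM per kb) and Slc3a2 relative to that sum (ratio of CPM per kb), a point per library coloured by experiment set, the V11 library as a triangle, with the mean and SD of 12. The Slc7a5 share lies higher and the Slc7a6 share lower in all 12 verapamil libraries than in any control, while the ratio with Slc3a2 overlaps.

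Slc7a1 (ENSMUSG00000041313; chr5:148327410-148399904, minus strand) encodes CAT1, the carrier of arginine, lysine and ornithine that works without a heavy chain. In the control it had 28.8, 30.4 and 33.3 CPM as the lowest, median and highest level. With verapamil these were 17.7, 59.9 and 67.2 CPM, as 11 libraries lay above every control and V11 alone lay below all of them. Without V11 the lowest verapamil level was 49.2 CPM, and the groups were apart. The log2 fold change was 0.86 (SE 0.13, adjusted p = 3.9e-06), a fold of 1.82. The transcript of Slc7a1 is long, with 7179 bases, and V11 had the steepest fall with length. The part of that trend in its value was not tested.

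Slc6a9 (ENSMUSG00000028542; chr4:117834506-117875198, plus strand) encodes GlyT1, the sodium- and chloride-coupled carrier of glycine. It rose from 4.74, 8.22 and 9.98 CPM as the lowest, median and highest control level to 19.9, 26.6 and 36.3 CPM with verapamil. The lowest verapamil library lay above the highest control. This was the largest change of the 8 genes, with a log2 fold change of 1.80 (SE 0.11, adjusted p = 1.8e-12), a fold of 3.48. It rests on 59 to 322 counts per control library and on 510 to 1193 per verapamil library. On the opposite strand the gene overlaps Gm17114, Ccdc24 and B4galt2, whose reads may not be told apart from its own without strand.

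Slc1a4 (ENSMUSG00000020142; chr11:20302180-20332713, minus strand) encodes ASCT1, which exchanges alanine, serine, cysteine and threonine with sodium. It was near the limit of what the depth resolves, with 8 to 36 counts per control library and 23 to 95 per verapamil library. Its lowest, median and highest levels were 0.643, 0.923 and 1.20 CPM in the control and 1.06, 2.07 and 2.79 CPM with verapamil. All but 1 of the verapamil libraries lay above every control, and the exception was a library of set 4 other than V11. The log2 fold change was 1.04 (SE 0.14, adjusted p = 1.4e-06), a fold of 2.06.

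Slc38a1 (ENSMUSG00000023169; chr15:96571418-96642913, minus strand) and Slc38a2 (ENSMUSG00000022462; chr15:96687392-96699730, minus strand) are neighbours, 44479 bases apart, and encode the sodium-coupled carriers SNAT1 and SNAT2 for glutamine, alanine and other small neutral amino acids. Slc38a1 had 5.86, 8.32 and 10.0 CPM as the lowest, median and highest control level, and 4.47, 10.4 and 11.8 CPM with verapamil. There, 7 libraries lay above every control and V11 below all of them, and without V11 the lowest level of Slc38a1 was 8.50 CPM. Its log2 fold change of 0.25 (SE 0.11, interval 0.03 to 0.47, adjusted p = 0.052) missed the threshold, and it was 0.32 (adjusted p = 0.0011) without V11 and 0.45 (adjusted p = 0.0014) with the GC and length covariates. The call also turned without control 2, 3, 5 or 10 or verapamil 4, so that it stood at the edge of the threshold. Slc38a2, a gene known to respond to amino acid shortage, had 77.9, 91.5 and 104 CPM in the control and 55.4, 88.4 and 112 CPM with verapamil as its lowest, median and highest level. The groups overlapped widely, with 4 verapamil libraries above every control and 2 below, V11 being the lowest and the next at 66.8 CPM. Its log2 fold change was 0.00 (SE 0.092, interval -0.18 to 0.19, adjusted p = 0.97), but 0.37 (adjusted p = 1.2e-05) with the GC and length covariates.

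In 3 of the 8 genes (Slc7a5, Slc3a2 and Slc6a9) all verapamil libraries lay above every control, against 4.95% of all genes tested, and in 0 all lay below, against 5.18%. Without V11, Slc7a1 joined them to make 4, against 6.22% of all genes. The exact permutation test of the 4 sums per group, two-sided, gave its smallest possible p of 0.0286 for each of the 5 genes that rose, since their sums did not overlap, while it gave an exact p of 0.0571 for Slc38a1, 0.257 for Slc7a6 and 1.0 for Slc38a2.

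Each of the 5 genes that rose was higher in verapamil in all 4 experiment sets, by different amounts. Slc6a9 gave log2 fold changes of 1.68, 1.99, 2.11 and 1.34 in sets 1 to 4, all past the threshold when each set was fitted on its own by edgeR (n = 3 per group). For Slc7a5 these were 0.65, 0.92, 0.95 and 0.42, and for Slc3a2 0.57, 0.94, 0.89 and 0.34. Sets 2 and 3 showed the largest changes of all 5 genes, and also had the strongest GC trends. In their verapamil libraries the mean r was 0.557 and 0.570, against 0.193 in set 1 and 0.166 in set 4. The part of these trends in the size of the changes was not tested. Slc7a1 rose by 0.91, 0.98, 1.03 and 0.41, and Slc1a4 by 1.05, 1.10, 1.44 and 0.47. Among these genes, the set 4 value passed the threshold for Slc6a9 (adjusted p = 0.039) and not for Slc7a1 (0.58), Slc7a5 (0.25), Slc3a2 (0.33) or Slc1a4 (0.47). Without V11, 3 control libraries were compared with 2, and set 4 gave 1.35 for Slc6a9 (adjusted p = 3.7e-04), 0.76 for Slc7a1 (2.8e-04) and 0.50 for Slc7a5 (0.0029), while Slc3a2 at 0.29 (0.082) and Slc1a4 at 0.35 (0.59) stayed short of it.

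Slc38a2 went up by 0.21 in set 1 (adjusted p = 0.012) and was at -0.06, -0.07 and -0.11 in sets 2 to 4, where it did not pass the test. Slc7a6 was at 0.14, -0.17, -0.16 and -0.19 and Slc38a1 at 0.30, 0.19, 0.42 and 0.06, none of them past the threshold. The test of whether the effect differed between the sets, an interaction in the edgeR model, called 0 of the 8 genes, against 9.72% of all genes. At an unadjusted p under 0.05 there were 3 (Slc3a2, Slc7a5 and Slc6a9), and the share of all genes at that threshold is not given here. The adjusted p was 0.062 for Slc7a5, 0.065 for Slc3a2 and 0.12 for Slc6a9, and from 0.25 to 0.83 for the others.

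**Figure D4:**
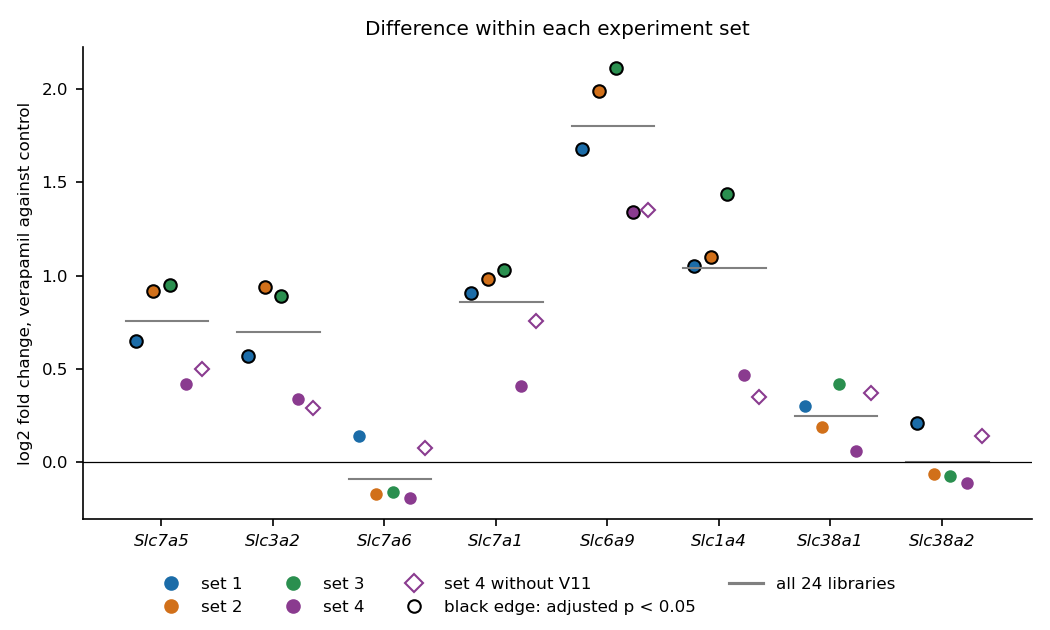
Log2 fold change of verapamil against control within each experiment set (coloured points, 3 libraries per group, black edge where the adjusted p is under 0.05), in set 4 without V11 (open diamonds, no significance marked) and over all 24 libraries (grey lines). Slc6a9 lies between 1.34 and 2.11 in all sets, and the values of Slc38a2 and Slc7a6 fall on both sides of 0.

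The list of other plasma membrane amino acid transporters held 35 names, 14 of them measured, with 3 that rose, 3 that fell and 8 short of the threshold, and a median log2 fold change of -0.20. Slc38a3 (SNAT3), a sodium-coupled carrier of glutamine, asparagine and histidine, had 5.45, 7.13 and 8.39 CPM as its lowest, median and highest control level and 13.5, 17.6 and 22.2 CPM with verapamil. The groups did not overlap, and its log2 fold change was 1.26 (SE 0.085, adjusted p = 1.0e-11). Slc7a8 rose by 0.32 (SE 0.093, adjusted p = 0.0046), a call that was lost with sums per set and without set 2 or 3, and by 0.18 with GC content and length as an offset. Slc7a11, the light chain of the cystine and glutamate exchanger, was named after its values were seen, since it averages under 1 CPM. It had 0 to 24 counts per control library and 7 to 78 per verapamil library, and a log2 fold change of 1.42 (SE 0.31, adjusted p = 4.2e-04).

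The 3 that fell were Slc1a2, Slc16a10 and Slc43a2. Slc43a2 (LAT4), a facilitator of branched-chain amino acids and phenylalanine, had 219, 230 and 252 CPM as its lowest, median and highest control level and 107, 190 and 211 CPM with verapamil. No verapamil library reached the lowest control, the lowest being V11 and the next at 179 CPM, and its log2 fold change was -0.32 (SE 0.069, adjusted p = 3.8e-04). The glutamate carrier Slc1a2 (EAAT2) had a log2 fold change of -1.12 (SE 0.21, adjusted p = 9.2e-05) at a median of 2.73 CPM in the control, and the aromatic amino acid carrier Slc16a10 (TAT1) one of -0.60 (SE 0.17, adjusted p = 0.0040) at 2.22 CPM. Both missed the threshold with the GC and length covariates, at -0.35 and -0.19. Per length, Slc6a6, Slc7a2 and Slc43a2 stood in the control above all 8 genes of interest. The taurine carrier Slc6a6 had 90.8 ± 6.83 CPM per kb (SD, n = 12) and Slc43a2 32.5 ± 1.48 CPM per kb. Slc7a2, which like Slc7a1 carries arginine and lysine, had 52.6 ± 2.71 CPM per kb. The log2 fold change was 0.03 for Slc6a6 (SE 0.10, adjusted p = 0.80) and -0.26 for Slc7a2 (SE 0.16, adjusted p = 0.17). In V11 Slc7a2 had 91.1 CPM and Slc6a6 237 CPM, the lowest level of either gene over all libraries. Without V11 the lowest verapamil level was 216 CPM for Slc7a2 and 543 CPM for Slc6a6.

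**Figure D5:**
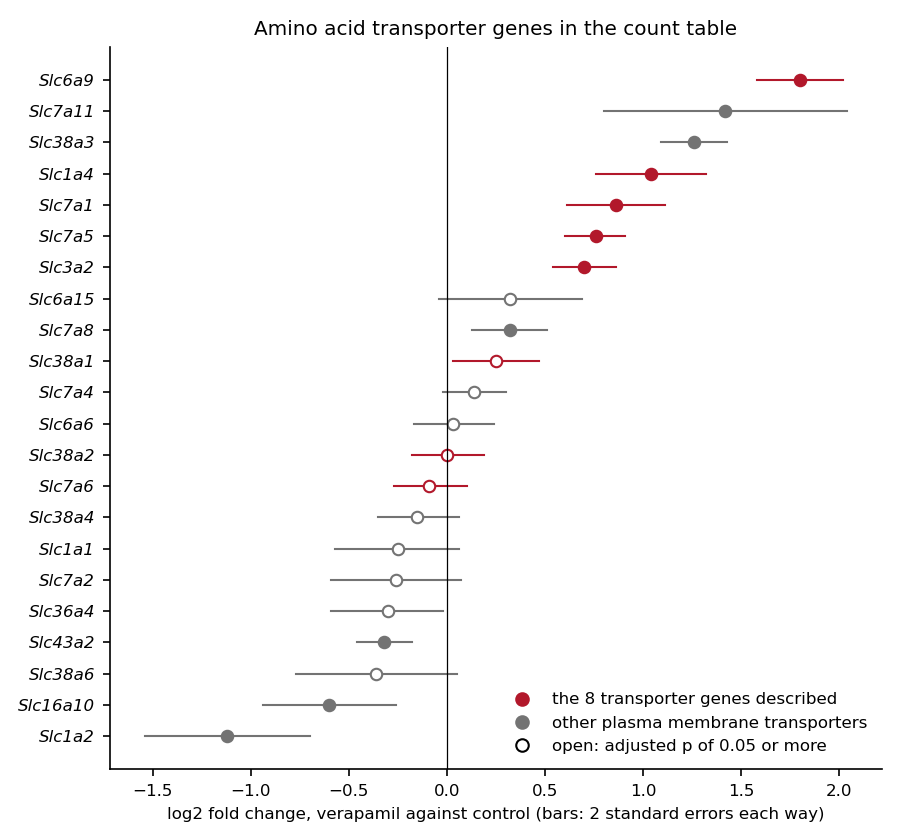
Log2 fold change of verapamil against control for the 8 transporter genes (red) and the 14 measured genes of the list of other plasma membrane transporters (grey), with 2 standard errors each way and open points where the adjusted p was 0.05 or more. Slc6a9 is at the upper end with 1.80 and Slc1a2 at the lower end with -1.12.

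Genes that steer carriers at the membrane were measured for 7 of 9 names, of which 4 fell and 3 did not pass the test, with a median log2 fold change of -0.29. Nedd4 and Nedd4l encode ubiquitin ligases that mark membrane proteins for removal, and their levels did not overlap between the groups. Nedd4 had 226, 238 and 252 CPM as the lowest, median and highest control level and 99.4, 153 and 214 CPM with verapamil, a log2 fold change of -0.61 (SE 0.11, adjusted p = 8.3e-05) that was -0.31 with GC content and length as an offset and -0.11 with them as covariates. Nedd4l fell by 0.29 (SE 0.044, adjusted p = 6.8e-06). It stood at -0.16 with GC content and length as covariates (adjusted p = 0.0021), but at 0.15 with them as an offset (adjusted p = 0.073). The kinase gene Sgk3 fell by 0.64 (SE 0.19, adjusted p = 0.0046) and Cltrn, which encodes collectrin, by 0.30 (SE 0.11, adjusted p = 0.017), and neither held its direction under both corrections for GC content and length, with 0.04 for Sgk3 and 0.08 for Cltrn under the one that turned it. Both calls were also lost with sums per set (adjusted p = 0.062 and 0.063) and without set 2 (0.11 each), and that of Cltrn without set 3 (0.095).

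Of 18 names in the list of amino acid response kinases and transcription factors, 14 were measured, with 7 higher, 1 lower and 6 short of the threshold. Its median log2 fold change was 0.13. Atf4, the transcription factor of that response, had 250, 267 and 286 CPM as the lowest, median and highest control level and 442, 664 and 831 CPM with verapamil, with no overlap and a log2 fold change of 1.28 (SE 0.080, adjusted p = 1.9e-12). Its relatives Atf5 (1.33, adjusted p = 5.8e-12) and Atf3 (1.09, adjusted p = 2.8e-05) and their partner Cebpb (1.02, adjusted p = 5.1e-08) also rose. With the GC and length covariates Atf4 was at 0.94, Atf5 at 0.95, Atf3 at 0.58 and Cebpb at 0.54. Eif2ak4, which encodes the amino acid shortage kinase GCN2, gave -0.05 (SE 0.14, adjusted p = 0.77), but 0.45 (adjusted p = 4.9e-04) with the GC and length covariates. The kinase genes measured beside it gave 0.24 for Eif2ak1 (adjusted p = 4.9e-05) and -0.07 for Eif2ak3 (adjusted p = 0.48).

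The lysosomal machinery that senses amino acids for mTORC1 was measured for 32 of 35 names, with 13 higher, 6 lower and 13 not passing the test, and a median log2 fold change of 0.14. Lamtor1, a subunit of the Ragulator scaffold, rose by 0.63 (SE 0.067, adjusted p = 3.5e-08), and by 0.20 with GC content and length as an offset and 0.33 with them as covariates. The GTPase gene Rragb fell by 0.94 (SE 0.15, adjusted p = 1.4e-05), from 804, 871 and 960 CPM as the lowest, median and highest control level to 193, 447 and 678 CPM, without overlap, and its log2 fold change was -0.38 with the covariates. Mios, a GATOR2 subunit, fell by 0.68 (SE 0.20, adjusted p = 0.0051) and Fnip1, a partner of folliculin, by 0.81 (SE 0.29, adjusted p = 0.017), yet with the GC and length covariates they stood at 0.04 and 0.30. Both calls were lost with sums per set (adjusted p = 0.10 and 0.12) and without set 2 (0.071 and 0.13), and that of Fnip1 without set 3 (0.11) and with the offset (0.14).

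Carriers of lysosomes and vesicles were measured for 12 of 16 names, with 3 higher, 2 lower and 7 short of the threshold, and a median log2 fold change of 0.04. Slc15a4, a lysosomal carrier of histidine and peptides, rose by 0.37 (SE 0.047, adjusted p = 4.8e-07), and 0.11 was left with GC content and length as an offset. The vesicular carrier Slc6a17 rose by 0.40 (SE 0.080, adjusted p = 1.9e-04), and the vesicular glutamate carrier Slc17a7 fell by 0.41 (SE 0.094, adjusted p = 7.1e-04), and by 0.68 with the offset. Slc7a14 fell by 0.54 (SE 0.20, adjusted p = 0.022) and stood at 0.18 with the GC and length covariates. It also missed the threshold with the offset (-0.25, adjusted p = 0.089), without set 2 (0.17) and without set 3 (0.099).

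Enzymes that use the carried amino acids were measured for 20 of 30 names, with 9 higher, 7 lower and 4 short of the threshold, and a median log2 fold change of 0.21. Gpt2, the mitochondrial alanine transaminase, had 14.4, 17.8 and 19.5 CPM as the lowest, median and highest control level and 31.1, 48.4 and 56.5 CPM with verapamil. Its groups did not overlap, and its log2 fold change was 1.45 (SE 0.080, adjusted p = 1.6e-13). Asns, asparagine synthetase, rose by 0.98 (SE 0.067, adjusted p = 1.3e-11) and Got1, the cytosolic aspartate transaminase, by 0.72 (SE 0.061, adjusted p = 6.7e-10), the latter by 0.43 with GC content and length as an offset.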

How the data were processed

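MIN6 cells of 12 control and 12 verapamil libraries were analysed. The authors deposited a table of raw counts, a column for each library. The submitters' processing notes list HTSeq 0.9.1, HISAT2 2.1.0, Trimmomatic 0.39 and bcl2fastq 2.20 with the build GRCm38 (mm10). Strand setting and annotation release: not given in the sources used here. The study's methods name a stranded mRNA kit, while the labels name another kit. The authors' own comparison (mean log2 CPM, fold changes, and p-values) stands in the same table and was not used.

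Groups were taken from the labels. The names of 4 columns (C11, C12, V11 and V12) could be more than 1 sample, so these were used as unnumbered replicates. The paper describes 4 independent experiment sets, with 3 replicates processed in each. Where libraries of a set are not separate cultures, p-values and SDs over 12 libraries measure technical spread in part. The count model was that of edgeR 4.0.16 (R 4.3.3), after filterByExpr with a total of at least 15 and counts of at least 10, with TMM scaling. All 24 libraries entered the quasi-likelihood test, with no covariate, with Benjamini-Hochberg adjustment and a threshold of 0.05. The SE was taken as the absolute log2 fold change over the root of the F value. Alternatives were another scaling, DESeq2 1.42.0, no filter, blocks, sums per set, each set alone or left out, each library left out, and correction for GC content and length (a spline offset with 4 degrees of freedom, or each library's slopes as covariates). The edgeR fit was tested on simulated counts with the same spread in both groups and no GC or length trend, unlike these data. GENCODE M21, matched by gene identifier, gave a transcript length and GC content for 12308 of the genes. Apart from this, 20 symbols written as dates were restored. Exact permutation tests used scipy 1.17.1, and pandas 2.3.3, numpy 2.4.6, limma 3.58.1 and matplotlib 3.10.9 in Python 3.11.15 served for the rest.

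The transporter genes and gene lists were chosen with earlier results of these data known. Some lists give a gene under both its old and its new symbol. Named are all 10 genes, of the list of other plasma membrane transporters up to 8 and of each other list up to 4 that passed the test, averaged 1 CPM or more and changed most, then Atf4 and Eif2ak4, and genes whose lack of a call is described. The numbers in the labels were checked as pairs: 2 of 10 same-numbered pairs had a correlation of their deviations over 0.1, so they were not used as such. Leaving V11 out of set 4 and of ranges and ratios was chosen after seeing the data. A planned comparison of protein sequences was not made. Some genes that the rule names, and 1 marker list, are not reported here.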

Additional observations from a re-analysis of the deposited data

Results flagged for a closer look

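The effect of verapamil differed between the 4 experiment sets for 2 of the genes named, by the interaction test in the edgeR model. For Rragb the adjusted p was 0.026, with log2 fold changes of -0.63, -1.42, -1.49 and -0.52 in sets 1 to 4. For Mios it was 0.011, with -0.18, -1.58, -1.21 and -0.31. Of all genes 9.72% were called in this test.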

How the results depend on the processing

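The calls of Slc6a9, Slc1a4, Slc7a1, Slc7a5 and Slc3a2 held under every alternative run except in set 4 alone. There the threshold was missed by Slc1a4 (0.47), Slc7a1 (0.41), Slc3a2 (0.34) and Slc7a5 (0.42), and without V11 by Slc1a4 (0.35) and Slc3a2 (0.29), so that 1 and 3 of the 8 genes were called higher. With the covariates 8 were called. Slc38a1 passed at 0.45 under both GC corrections, at 0.25 with RLE scaling (adjusted p = 0.049) and DESeq2 (0.040), at 0.30 with the replicate block of 10 numbered pairs, which leaves out the unnumbered libraries (0.011), and at 0.31 without set 4. Slc38a2 passed at 0.43 with the offset, 0.37 with the covariates and 0.21 in set 1. Slc7a6 turned to 0.25 with the covariates, 0.14 in set 1 and 0.08 in set 4 without V11. The block changed no other call of a named gene, and same-numbered libraries correlated at -0.0509 to 0.114. Of the other transporters, 6 rose under either correction, 0 in set 4 by edgeR (1 at an unadjusted p under 0.05) and 1 there without V11. Of the same list, 1 fell with the covariates, 1 in set 1, 6 in set 2, 1 in set 3, 0 in set 4 (1 unadjusted, and 1 without V11) and 5 without set 1. Of all genes, 1721, 3802 and 2878 were lower in sets 1, 2 and 3 on their own, and 3870 without set 1. Further genes turned with the covariates (Slc7a14 0.18, Sgk3 0.04, Fnip1 0.30, Mios 0.04, Eif2ak4 0.45), with the offset (Cltrn 0.08, Nedd4l 0.15) or without set 2 or 3 (Eif2ak4 0.04 and 0.01). The causes were not tested.

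Leaving out each library in turn, 5 to 6 of the 8 genes were higher and 0 lower, and of the other transporters 3 to 4 were higher and 3 to 5 lower. Slc38a1 ranged from 0.22 to 0.32. Set 4 called 39 genes higher and 11 lower in all, and 739 and 759 without V11. All genes gave 3836 higher and 3890 lower in the reported fit, 2541 and 4252 with the offset, 2616 and 1752 with the covariates, and 3005 and 2124 with sums. The covariates inflate the variance of the treatment term by 1.98. Depth limits Slc1a4 and Slc7a11 most.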
